A study of Mus musculus with 6 samples.

Results

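The genes of Wnt signalling were followed in femurs of OVX mice; ovariectomy, for which this term usually stands, is a model of bone loss. The set holds 52 protein-coding genes of 54532 genes listed, 22046 of them protein coding. Members were picked by gene name, with earlier results of these data known: 37 are Wnt, Frizzled, Sfrp and R-spondin genes taken by their numbered symbols, and 15 were named singly. By role they are 19 ligands, 4 R-spondins, 10 Frizzled receptors, 3 co-receptors, 2 R-spondin receptors, 7 secreted antagonists or modulators, 5 transducers and 2 transcription factors.

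Labels give 6 samples of WT bone in 2 groups. In the Zin group (3 samples) mice received zingerone orally at 100 mg/kg daily over 8 weeks, and in the OVX group (3 samples) mice received saline. All were sequenced from total RNA of ground femur. Column names tied values only to the 3 OVX samples, called libraries 1, 2 and 3, so zingerone was not compared with OVX. The titles add 8, 9 and 10 weeks to libraries 1, 2 and 3 in this order, so a week and a library cannot be told apart. No label names separate animals or says how many were pooled. The labels also name RAW264.7, a mouse macrophage line of osteoclast precursors. Against that entry, osteoblast genes such as Col1a1 (614, 1597 and 364 FPKM in libraries 1, 2 and 3) and the beta-globin Hbb-bs (20397, 22806 and 26898 FPKM) were abundant, as in bone with its marrow. FPKM are read numbers scaled by gene length and by library size. OVX is the labels' word, and the Zin labels do not say whether those mice were operated on.

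Wnt ligands are secreted lipid-modified proteins that bind a Frizzled receptor. With the co-receptors Lrp5 or Lrp6 this keeps beta-catenin from being degraded, and beta-catenin then acts with Tcf and Lef factors on target genes. R-spondins, through Lgr receptors, keep Frizzleds at the cell surface, while Sfrp, Wif1 and Dickkopf proteins act outside the cell as modulators. In bone the pathway is known to promote osteoblast formation and to restrain resorption by way of osteoprotegerin.

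Shown first are the bases just upstream of 4 members, because 3 of them, Wif1, Sfrp5 and Wnt5b, had the widest spread between libraries among tested members that matched a window, and Wnt11 carries the core of Tcf and Lef sites. The windows are from RefSeq (build GRCm38.p6, the build of mm10), and 34 of 52 members matched one. The 4 shown were trimmed, where needed, to end before the listed gene start. Wif1 is read from chr10:121033754-121033959 on the plus strand, Sfrp5 from chr19:42202253-42202502 and Wnt5b from chr6:119544348-119544597 on the minus strand, and Wnt11 from chr7:98834862-98835111 on the plus strand. Capitals mark the GC box GGGCGG and the Tcf and Lef core CTTTGA, each on either strand (CCGCCC and TCAAAG), and neighbouring GC boxes may share a base.
Wif1: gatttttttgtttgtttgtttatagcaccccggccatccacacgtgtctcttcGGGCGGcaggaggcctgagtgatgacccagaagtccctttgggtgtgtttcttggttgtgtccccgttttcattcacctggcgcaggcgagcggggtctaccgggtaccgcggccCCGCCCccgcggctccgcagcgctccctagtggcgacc
Sfrp5: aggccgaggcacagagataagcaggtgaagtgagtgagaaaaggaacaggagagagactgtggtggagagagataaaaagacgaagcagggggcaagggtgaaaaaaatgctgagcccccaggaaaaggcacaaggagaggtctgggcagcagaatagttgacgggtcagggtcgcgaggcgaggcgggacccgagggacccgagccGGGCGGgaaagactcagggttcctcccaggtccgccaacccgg
Wnt5b: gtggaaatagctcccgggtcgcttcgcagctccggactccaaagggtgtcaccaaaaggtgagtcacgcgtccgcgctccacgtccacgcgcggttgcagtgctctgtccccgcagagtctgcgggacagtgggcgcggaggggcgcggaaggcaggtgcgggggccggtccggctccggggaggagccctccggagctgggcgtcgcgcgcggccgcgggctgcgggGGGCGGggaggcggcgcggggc
Wnt11: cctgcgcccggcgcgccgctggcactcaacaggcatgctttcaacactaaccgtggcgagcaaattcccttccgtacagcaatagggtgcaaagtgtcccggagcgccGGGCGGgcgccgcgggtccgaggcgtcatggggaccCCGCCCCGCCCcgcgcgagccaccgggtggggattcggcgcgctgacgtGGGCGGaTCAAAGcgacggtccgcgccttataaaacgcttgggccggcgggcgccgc

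The GC box, a sequence bound by Sp1-type factors, stood 2 times in the Wif1 window, once each in those of Sfrp5 and Wnt5b, and 4 times in that of Wnt11. Over the untrimmed 250 bases before the RefSeq start it was in 26 of 34 member windows (76.5%), against 32.7% of all 32851 windows, which include noncoding genes. The RefSeq start could lie apart from the listed gene start, as 4184 bases inside the gene for Ctnnb1 and 6279 for Nkd1. The Tcf and Lef core was in 2 of 34 member windows (5.88%), those of Wnt11 and Fzd1, against 13.8% of all windows. Matches describe letters and do not show binding.

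The libraries held 16581579 to 17017907 reads, of which members took 0.0893%, 0.119% and 0.0920% in libraries 1, 2 and 3. Reads were found for 47 members, and 43 had reads in all 3 libraries. A mean of at least 1 FPKM, the level required for testing, was reached by 25 members, 3 ligands among them. For each gene a chi-square test set the reads of the libraries against their totals, with Benjamini-Hochberg adjustment over all 14011 tested genes. It compares libraries, not treatments, and an adjusted p below 0.05 means a spread beyond the noise of read counting. By this test 18 of 25 tested members differed, where 38.7% of all tested genes did. Of these 18, 16 were highest in library 2, 2 in library 1 and 0 in library 3, while over all tested genes 13.0% differed and were highest in library 2, 15.3% in library 1 and 10.4% in library 3. Regardless of the test, 19 of 25 tested members were highest in library 2, 3 in library 1 and 3 in library 3, where the shares over all tested genes were 34.8%, 33.3% and 31.9%. At least a 2-fold range on the log2(FPKM + 1) scale was found for 2 members, Wif1 and Sfrp5, against 5.89% of all tested genes. Without library 2, 7 members differed and 0 had such a range, against 18.0% and 1.98% of all genes. Library 2 also stood apart in osteoblast, cartilage and muscle markers, whose values are given after those of the members. The median range on that log2 scale was 0.38 over tested members and 0.17 over all tested genes.

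**Figure D1:**
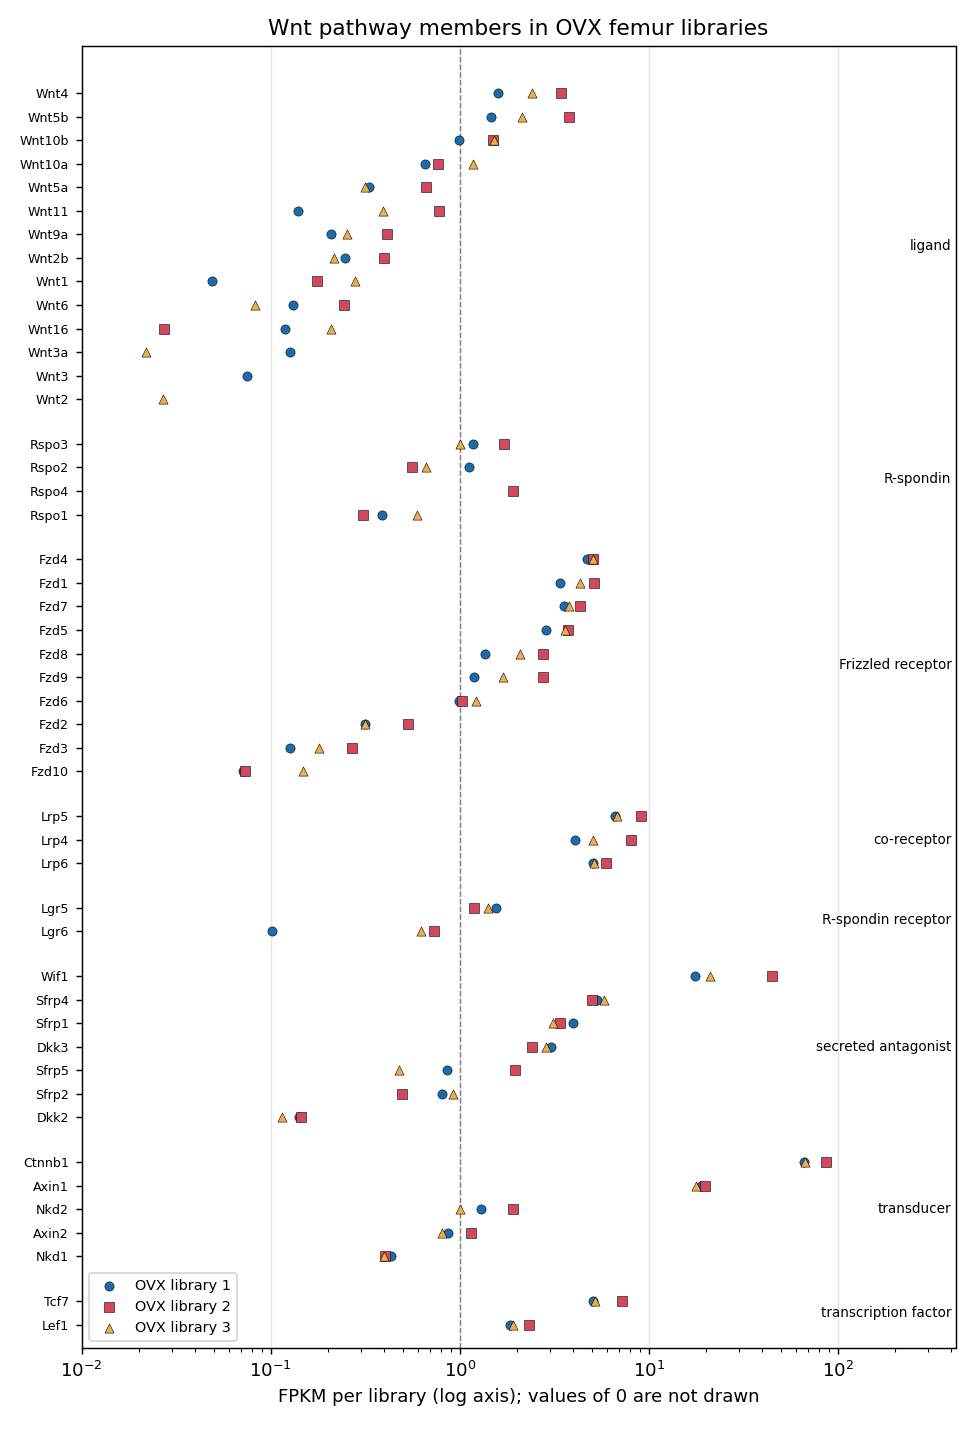
FPKM of the 47 Wnt pathway members with reads, 1 symbol per OVX library, grouped by role, on a log axis; the dashed line marks 1 FPKM and values of 0 are not drawn. Ctnnb1 and Wif1 lead at means of 73.6 and 27.8 FPKM, while most ligands lie left of the line.

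Among the ligands, 3 of 19 reached the level for testing, and the level summed over all 19 was 6.12, 12.2 and 9.05 FPKM in libraries 1, 2 and 3. Wnt4, a ligand that mouse studies link to osteoblast formation, had 1.59, 3.45 and 2.42 FPKM, resting on 115, 244 and 168 reads. Wnt5b, a mainly noncanonical ligand active in cartilage, had 1.46, 3.80 and 2.14 FPKM, resting on 67, 170 and 94 reads. Wnt10b, which promotes bone formation in mice, was at 0.987, 1.501 and 1.51 FPKM. Library 1 was the lowest for all of them, and library 2 was the highest for Wnt4 and Wnt5b. Wnt4 differed between libraries (chi-square test, adjusted p = 5.76e-10), with the highest 2.18 times the lowest. For Wnt5b the ratio was 2.60 (chi-square test, adjusted p = 1.14e-10), and without library 2 the chi-square test gave adjusted p = 0.0962. Wnt10b did not pass (chi-square test, adjusted p = 0.0687). The Wnt5b gene overlaps Fbxl14, which lies on the opposite strand, by 2963 bases, and Fbxl14 stood at 33.6, 32.9 and 29.9 FPKM. This overlap is between spans from gene start to gene end, and whether exons overlap was not checked. No source used here says whether counting used the strand, so whether this pair shares any reads is not known.

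Wnt4 and Wnt5b had nearly equal means, 2.49 ± 0.935 and 2.47 ± 1.20 FPKM (SD, n = 3), and Wnt4 was the higher in 2 of 3 libraries. Wnt10b, at 1.33 ± 0.2999 FPKM (SD, n = 3), was below Wnt5b and above Wnt10a in all 3 libraries. Of the summed ligand FPKM, Wnt4 made up 27.0% ± 1.19, Wnt5b 26.2% ± 4.26 and Wnt10b 15.0% ± 2.39 (SD over libraries, n = 3).

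The other 16 ligands stayed below a mean of 1 FPKM. Wnt10a, the relative of Wnt10b, was at 0.657, 0.770 and 1.18 FPKM in libraries 1, 2 and 3. Wnt5a, a noncanonical ligand, was at 0.333, 0.660 and 0.317 FPKM. Wnt11, also noncanonical and known from cartilage and bone, was at 0.140, 0.775 and 0.395 FPKM from 10, 54 and 27 reads. Library 2 was thus the highest for Wnt5a and Wnt11, and library 3 for Wnt10a. Wnt9a, Wnt2b, Wnt1, Wnt6 and Wnt16 had means of 0.118 to 0.291 FPKM. Wnt16, which in mice maintains cortical bone, rested on 9, 2 and 15 reads. Wnt3a had 6, 0 and 1 reads, Wnt3 had 4, 0 and 0, and Wnt2 had 0, 0 and 1. Wnt7a, Wnt7b, Wnt8a, Wnt8b and Wnt9b had no reads in any library. A count of 0 allows up to 3 reads, which for these ligands is 0.0354 FPKM (Wnt7b) to 0.0994 FPKM (Wnt8a) in library 1, for counting error only. Tested with no filter on low values, Wnt5a, Wnt11 and Wnt16 differed between libraries (chi-square test, adjusted p = 0.000200, 1.67e-06 and 0.0323).

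**Figure D2:**
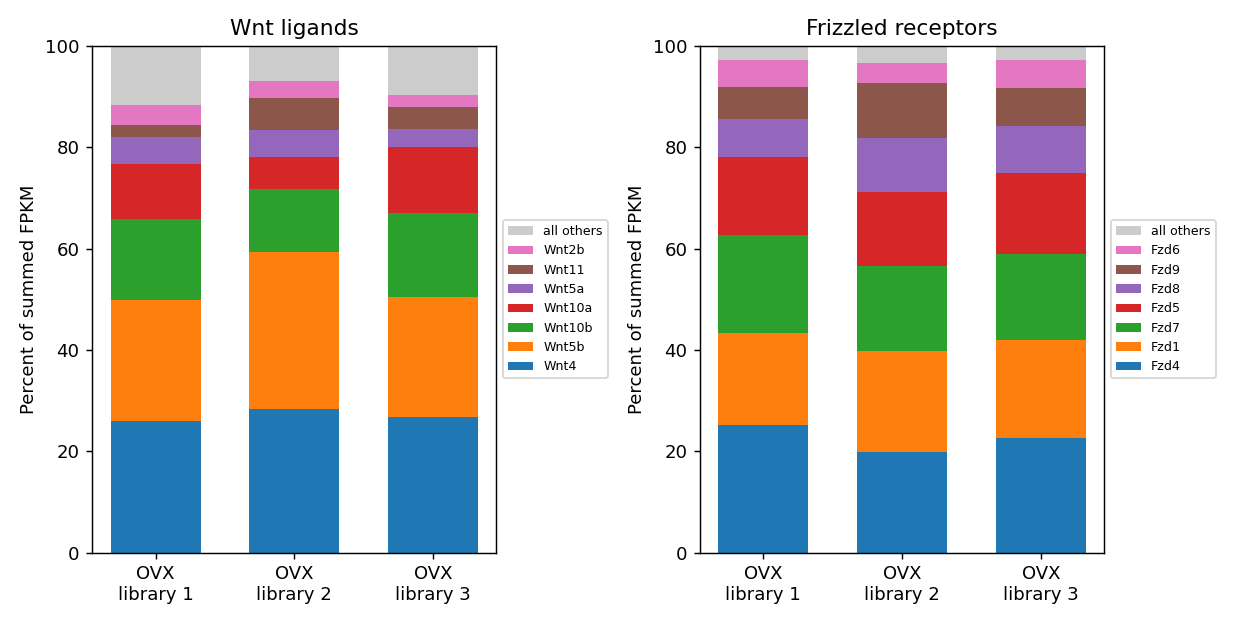
Share of summed FPKM, in percent, held by each of the 7 most abundant ligands (left) and Frizzled receptors (right) in OVX libraries 1, 2 and 3, with all other genes of the role in grey. Wnt4 takes 25.9% to 28.3% of ligand FPKM and Fzd4 takes 19.8% to 25.3% of Frizzled FPKM.

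R-spondins amplify Wnt signals, and 1 of 4 was tested. Rspo3, a member expressed in bone and vessels, was at 1.18, 1.71 and 0.998 FPKM in libraries 1, 2 and 3. It was highest in library 2 (chi-square test, adjusted p = 0.0173). Leaving out library 2 gave adjusted p = 0.558 and leaving out library 3 gave 0.0948 in the same chi-square test. Rspo2, which in mice acts in limb and skeleton, was highest in library 1 and lowest in library 2, at 1.12, 0.557 and 0.663 FPKM from 99, 48 and 56 reads. Rspo1 was at 0.388, 0.306 and 0.593 FPKM.

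Rspo4, known for its part in nail growth, was found in library 2 alone among the 3 libraries, at 0, 1.90 and 0 FPKM from 0, 76 and 0 reads. Its 76 reads have an exact Poisson interval (95%) of 1.499 to 2.38 FPKM. In libraries 1 and 3 a count of 0 allows up to 0.0732 and 0.0765 FPKM. With no filter on low values Rspo2 and Rspo4 differed between libraries (chi-square test, adjusted p = 0.000242 and 1.22e-31). Rspo4 took 42.5% of R-spondin FPKM in library 2, and the antisense gene Rspo4os had no reads in any library.

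The Frizzled receptors, which bind Wnt at the cell surface, were led by Fzd4, and 7 of 10 were tested. Their summed level was 18.6, 25.8 and 22.4 FPKM in libraries 1, 2 and 3. Fzd4, also the receptor of norrin in vessels, was at 4.69, 5.10 and 5.09 FPKM. Fzd1 was at 3.38, 5.16 and 4.31 FPKM. Fzd7 was at 3.58, 4.32 and 3.80 FPKM. Fzd4, Fzd1 and Fzd7 were all highest in library 2, Fzd4 only barely above library 3. Fzd4 varied least. Fzd5 was at 2.87, 3.75 and 3.59 FPKM. Fzd8 was at 1.37, 2.75 and 2.10 FPKM. Fzd9, which osteoblasts of mice need for full bone formation, was at 1.19, 2.77 and 1.69 FPKM. These 3 shared an order, lowest in library 1 and highest in library 2. Fzd6, a receptor of planar polarity, was at 0.997, 1.02 and 1.22 FPKM.

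Fzd1, Fzd5, Fzd8 and Fzd9 differed between libraries (chi-square test, adjusted p = 4.28e-05, 0.00639, 2.89e-05 and 1.73e-05), and Fzd4, Fzd6 and Fzd7 did not pass (chi-square test, adjusted p = 0.603, 0.489 and 0.179). Without library 1, the chi-square test gave adjusted p = 0.0822 for Fzd1, 0.719 for Fzd5 and 0.0974 for Fzd8. For Fzd9 leaving out library 2 gave 0.235. By level, Fzd4, Fzd1, Fzd7 and Fzd5, at 4.96 ± 0.232, 4.28 ± 0.892, 3.90 ± 0.383 and 3.40 ± 0.468 FPKM (SD, n = 3), had neighbours whose gaps were under 2 SD of their difference. Fzd5 exceeded Fzd8 by 1.33 ± 0.286 FPKM (SD, n = 3) and in all 3 libraries. Fzd2, Fzd3 and Fzd10 were below, at means of 0.388, 0.192 and 0.0977 FPKM. Fzd3 differed with no filter on low values (chi-square test, adjusted p = 0.0212), at 0.127, 0.269 and 0.180 FPKM.

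All 3 co-receptors were tested, and each was highest in library 2. Lrp5, whose loss lowers bone mass in humans and mice, was at 6.66, 9.06 and 6.77 FPKM in libraries 1, 2 and 3. Lrp6, its close relative, was at 5.07, 5.96 and 5.11 FPKM. Lrp4, which binds sclerostin and aids its block of Wnt signals in bone, was at 4.07, 8.03 and 5.05 FPKM on 738, 1421 and 877 reads. For Lrp5, and likewise for Lrp6, libraries 1 and 3 were close to each other, whereas Lrp4 was lower in library 1 than in library 3. Lrp4 was 1.98 times as high in library 2 as in library 1 (chi-square test, adjusted p = 9.32e-54), and without library 2 the chi-square test still gave adjusted p = 0.001001. The ratio of highest to lowest was 1.36 for Lrp5 and 1.18 for Lrp6 (chi-square test, adjusted p = 2.26e-15 and 0.000605). Without library 2 these became 0.984 and 0.905 in the same chi-square test. Lrp5 was above Lrp4 in all 3 libraries, while Lrp4 was above Lrp6 only in library 2. Lrp4 lies on chromosome 2 at 91457511 to 91513779 (mm10, plus strand).

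Of the 2 R-spondin receptors in the set, Lgr5, a stem cell marker of several epithelia, was the more abundant. Lgr4, an R-spondin receptor outside the set, had a higher mean than Lgr5 (2.09 against 1.39 FPKM) and was highest in library 2. Lgr5 was at 1.55, 1.19 and 1.42 FPKM, lowest in library 2 (chi-square test, adjusted p = 0.0236). This call was lost without library 1 (chi-square test, adjusted p = 0.161) and without library 2 (0.457). Lgr5 overlaps A930009A15Rik on the opposite strand, which had 37, 12 and 41 reads against 275, 206 and 241 for Lgr5 in libraries 1, 2 and 3. Lgr6 was at 0.101, 0.728 and 0.627 FPKM from 12, 84 and 71 reads. Its low value was that of library 1 alone, with an exact Poisson interval (95%) of 0.0524 to 0.177 FPKM. With no filter on low values Lgr6 differed between libraries (chi-square test, adjusted p = 5.85e-11).

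**Figure D3:**
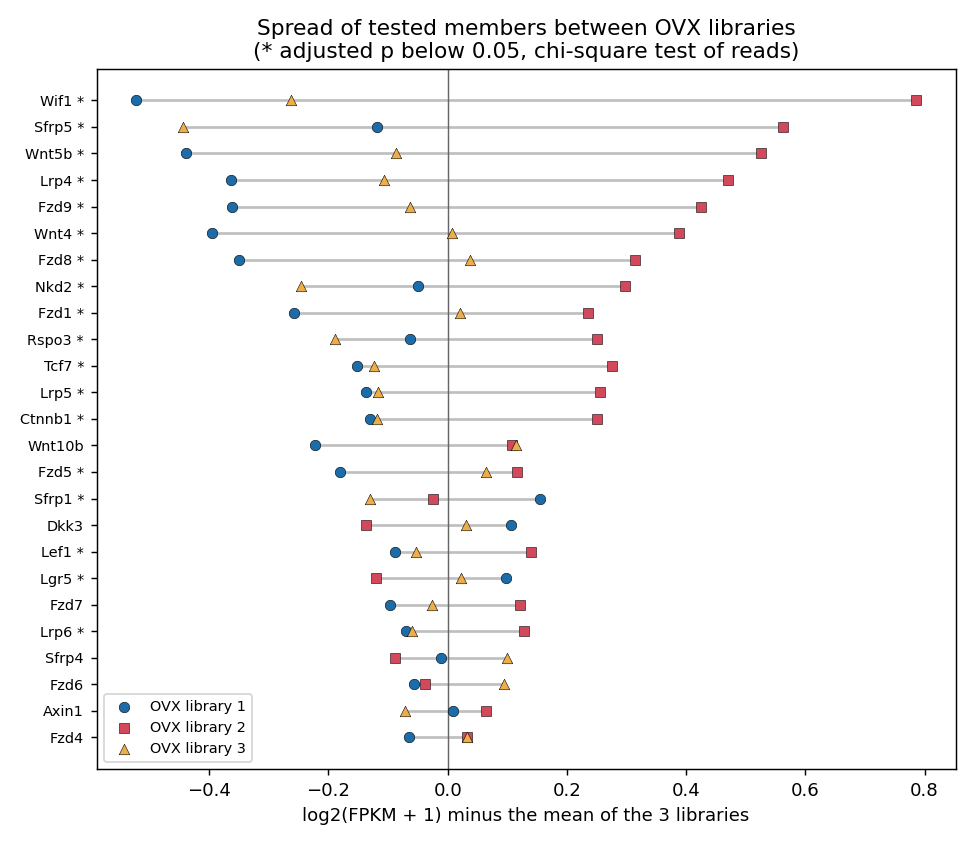
log2(FPKM + 1) of each tested member in OVX libraries 1, 2 and 3 minus its mean over the libraries, ordered by range, with asterisks at members that differed beyond counting noise. Library 2 is the rightmost symbol for 19 of 25 members and library 1 the leftmost for 17, and Wif1 spans 1.31 on this scale.

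Secreted antagonists and modulators were dominated by Wif1, a secreted inhibitor that binds Wnt proteins and is made by osteoblasts as they mature. Wif1, whose upstream window is shown above, was at 17.5, 44.8 and 21.1 FPKM in libraries 1, 2 and 3, with 733, 1832 and 848 reads. Library 2 stood far above libraries 1 and 3. Exact Poisson intervals (95%) ran from 16.2 to 18.8, from 42.8 to 46.9 and from 19.7 to 22.6 FPKM. The highest value was 2.56 times the lowest (chi-square test, adjusted p = 3.70e-135), and without library 2 the chi-square test gave adjusted p = 0.00654. Wif1 held 55.2%, 76.9% and 61.4% of the FPKM of its role, and ranked 1999 by mean among all genes listed. It lies on chromosome 10 at 121033960 to 121100650 (mm10, plus strand).

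Sfrp genes encode decoys with a Frizzled-like domain. Sfrp4, whose loss thins cortical bone in mice and humans, was at 5.32, 4.99 and 5.82 FPKM in libraries 1, 2 and 3 (chi-square test, adjusted p = 0.177). Sfrp1, a brake on bone formation in mice, was at 3.997, 3.41 and 3.10 FPKM (chi-square test, adjusted p = 0.0181). Sfrp5, also studied in fat tissue, was at 0.853, 1.97 and 0.477 FPKM from 28, 63 and 15 reads. Of these, Sfrp5 alone was highest in library 2, and Sfrp1 was highest in library 1. The chi-square test gave adjusted p = 3.88e-07 for Sfrp5, with a highest value of 4.12 times the lowest; without library 2 its mean was under the level for testing. For Sfrp1, the chi-square test gave adjusted p = 0.516 without library 1 and 0.0941 without library 3. Sfrp2 was at 0.806, 0.496 and 0.927 FPKM.

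Dkk3, a Dickkopf relative that does not act on Lrp6 as Dkk1 does, was at 3.05, 2.42 and 2.84 FPKM (chi-square test, adjusted p = 0.157). Dkk2 was at 0.141, 0.144 and 0.114 FPKM. In order of level, Wif1 was above Sfrp4, Sfrp4 above Sfrp1, Sfrp1 above Dkk3 and Dkk3 above Sfrp5 in all 3 libraries. The gap of Sfrp4 over Sfrp1, 1.87 ± 0.745 FPKM (SD, n = 3), was over 2 SD, and the other gaps among these genes were not.

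Ctnnb1, which encodes beta-catenin, was the most abundant member, with 66.6, 87.0 and 67.1 FPKM and 5971, 7609 and 5761 reads in libraries 1, 2 and 3. Library 2 was higher than the others. The ratio of highest to lowest was 1.31 (chi-square test, adjusted p = 3.24e-62), and without library 2 the chi-square test gave adjusted p = 0.777. Axin1, the scaffold of the complex that degrades beta-catenin, was at 19.0, 19.7 and 17.9 FPKM, with no difference past the threshold (chi-square test, adjusted p = 0.105). Axin2, its inducible relative and a widely used readout of Wnt signals, was at 0.872, 1.15 and 0.802 FPKM from 83, 107 and 73 reads. Its mean of 0.943 FPKM was just under the level for testing, and with no filter the chi-square test gave adjusted p = 0.135. Nkd2, a Dishevelled-binding inhibitor, was at 1.30, 1.92 and 1.003 FPKM (chi-square test, adjusted p = 3.59e-05), and 0.199 was reached without library 2 in the same test. Nkd1 was at 0.432, 0.404 and 0.398 FPKM. Its 34, 31 and 30 reads gave adjusted p = 0.934 in the chi-square test with no filter.

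Both transcription factors were highest in library 2. Tcf7, a factor of Wnt signals that is abundant in T cells, was at 5.09, 7.19 and 5.21 FPKM in libraries 1, 2 and 3. Lef1, also used by early B cells, was at 1.84, 2.33 and 1.91 FPKM. Tcf7 differed between libraries (chi-square test, adjusted p = 0.000336), as did Lef1 (chi-square test, adjusted p = 0.0342). Without library 2 the chi-square test gave adjusted p = 0.985 for Tcf7 and 0.910 for Lef1, and without library 1 it gave 0.0623 for Lef1. Beside them, T and NK cell markers summed to 79.3, 65.2 and 68.6 FPKM and early B cell markers to 427, 409 and 382 FPKM in libraries 1, 2 and 3. Genes within these lists did not share 1 order. Of 8 tested T and NK cell markers 4 were highest in library 1, 3 in library 2 and 1 in library 3. For 10 tested early B cell markers these counts were 6, 4 and 0. Of the 4 T and NK cell markers that differed, 3 were highest in library 1, 0 in library 2 and 1 in library 3. Of the 8 early B cell markers that differed, 4 were highest in library 1 and 4 in library 2. Over all tested genes 38.7% differed. The part of these cell types in the levels of Tcf7 and Lef1 was not tested.

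Markers of cell types moved between the same libraries. In bulk femur, fewer cells of a type and less RNA per cell cannot be told apart. Osteoblast markers summed to 2559, 5836 and 1528 FPKM in libraries 1, 2 and 3, with all 11 highest in library 2. Chondrocyte markers summed to 25.4, 737 and 60.1 FPKM, and all 13 tested were highest in library 2, while Snorc and Ucma were at 0 in library 1. The mean required for testing includes library 2, so some markers low elsewhere, such as Sox9 (0.294, 2.89 and 0.366 FPKM), passed only through it. For such genes the filter itself set where the peak lay, a limit that also holds for the lists that follow. Over all tested genes 34.8% were highest in library 2. Skeletal muscle markers summed to 1788, 154 and 1095 FPKM, with none of 12 highest in library 2. Library 2 thus had the highest osteoblast and cartilage sums and the lowest muscle sum. Osteoclast markers summed to 398, 1107 and 833 FPKM, with 7 of 7 tested highest in library 2, and adipocyte markers to 160, 324 and 103, with 5 of 5. Osteocyte markers summed to 86.4, 136 and 107 FPKM, but only 3 of 5 tested were highest in library 2. Of these, Dmp1 (17.4, 62.8 and 30.0 FPKM) and Phex (5.31, 13.0 and 5.70) are also in the osteoblast list, and Pdpn (1.59, 2.55 and 0.865) is not. Dmp1 carried most of the peak, while Sost was lowest in library 2. Joint surface and tendon markers summed to 14.2, 91.8 and 82.3 FPKM, and 3 of 6 were highest in library 2, with Thbs4 (4.03, 2.35 and 6.31) and Tnmd (1.67, 0.702 and 1.48) lowest there. Sox9, Dmp1, Phex, Pdpn, Thbs4 and Tnmd, and Cxcl12 and Lyz2 below, were picked out after their values were seen. Sums were nearly level for stroma (248, 247 and 261 FPKM), endothelium (64.1, 61.1 and 63.5) and macrophage markers (2942, 2923 and 2886). Even so, 6 of 6, 4 of 7 and 2 of 4 tested genes of these lists differed, where 38.7% of all tested genes did. Most of the stroma sum was Cxcl12 (206, 210 and 216 FPKM), and most of the macrophage sum was Lyz2 (2819, 2786 and 2753 FPKM). These sums therefore tell little of the other genes in the 2 lists. Neutrophil markers summed to 23893, 26115 and 24321 FPKM and erythroid markers to 43178, 48242 and 55408, the erythroid ones all highest in library 3. The part of these shifts in the spread of Wnt genes was not tested.

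**Figure D4:**
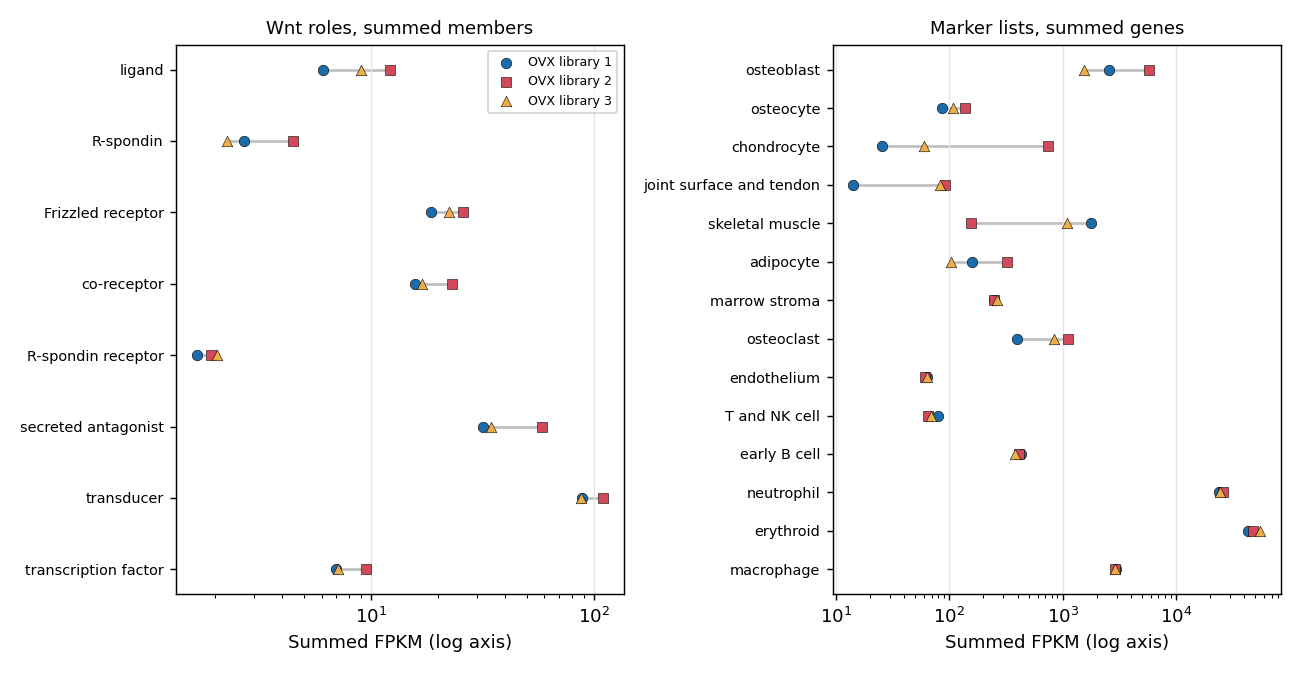
Summed FPKM of the members of each Wnt role (left) and of each cell type marker list (right) in OVX libraries 1, 2 and 3, on log axes. Library 2 is highest for 7 of the 8 roles and for osteoblast and chondrocyte markers, and lowest for skeletal muscle markers. In library 2 Wif1 makes up 76.9% of the antagonist sum and Rspo4 42.5% of the R-spondin sum. Without these genes neither sum would be highest there.

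Beyond the 52 members, 65 other genes of the pathway were followed in 7 lists. Of 53 that were tested, 34 differed between libraries by the chi-square test, 24 of them highest in library 2, 5 in library 1 and 5 in library 3, beside the 38.7% and 13.0% over all genes. All 4 tested genes of the list for ligand secretion and release (Wls, Porcn, Reck and Adgra2) differed and were highest in library 2. Reck and Adgra2 act on the receiving side rather than in secretion. Wls, the carrier that brings Wnt to the cell surface, was at 7.17, 8.07 and 7.01 FPKM in libraries 1, 2 and 3, and Reck, a co-receptor of Wnt7, was at 3.31, 5.76 and 3.83. Notum, a secreted enzyme that strips the lipid from Wnt, was below the level for testing at 0.0240, 1.80 and 0.578 FPKM.

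Antagonists outside the set differed in 7 of 8 tested genes, 5 highest in library 2, beside 38.7% and 13.0% of all tested genes. Most are secreted, but Kremen1 and Apcdd1, counted in both numbers, are membrane proteins. Igfbp4, a binding protein of insulin-like growth factors that also acts on Frizzled, was at 122, 143 and 126 FPKM. Sost, the osteocyte product sclerostin, was at 36.5, 24.2 and 32.6 FPKM, lowest in library 2. Dkk1, which blocks Lrp5 and Lrp6, was at 3.004, 7.29 and 2.64 FPKM in libraries 1, 2 and 3. Apcdd1, a membrane-bound inhibitor, was at 1.92, 4.88 and 1.64 FPKM, and Frzb, the cartilage Sfrp, at 0.483, 4.24 and 0.729. Dkk1, Apcdd1 and Frzb, each at least 2-fold on the log2(FPKM + 1) scale, were highest in library 2, where Sost was lowest.

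The cytoplasmic machinery was the most even list, with 3 of 13 tested genes past the chi-square test and none highest in library 2 among them. Gsk3a, a kinase that marks beta-catenin for degradation, was 1 of them at 28.4, 31.1 and 32.6 FPKM, and Csnk1d, a casein kinase at 32.9, 32.9 and 33.8 FPKM, did not pass. Of 2 tested receptor turnover genes, the R-spondin receptor Lgr4 differed, at 1.54, 3.35 and 1.37 FPKM, and the folding helper Mesd did not pass, at 8.52, 8.73 and 8.22 FPKM. Nuclear partners differed in 7 of 10 tested genes, 6 of them highest in library 2. The most abundant partners did not pass: Pygo2, which links beta-catenin to chromatin, was at 17.3, 18.2 and 17.3 FPKM and the corepressor Tle3 at 11.2, 11.6 and 11.2. Genes of planar polarity and noncanonical signals differed in 5 of 9, 3 highest in library 2. Daam1, a formin, was at 14.0, 11.3 and 14.2 FPKM and the receptor Ryk at 5.04, 8.52 and 5.12. Beside the counts of these lists, 38.7% of all tested genes differed, and 13.0% differed and were highest in library 2.

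Known target genes outside the set differed in all 7 tested, 5 of them highest in library 2, beside 38.7% and 13.0% of all tested genes. Cd44, a hyaluronan receptor, was at 33.99, 37.5 and 38.7 FPKM and Myc at 23.4, 20.4 and 22.8 in libraries 1, 2 and 3. Twist1, a mesenchymal factor, was at 3.20, 12.1 and 3.75 FPKM. Tnfrsf11b, the decoy receptor osteoprotegerin, was at 1.09, 6.38 and 3.09 FPKM. The wide ranges of Twist1 and Tnfrsf11b came with peaks in library 2, as for Wif1. Sp5, a direct target in many tissues, had no reads in any library.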

How the data were processed

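RNA of femur was sequenced, with Trimmomatic, FastQC, STAR, featureCounts and build mm10 named in the submitters' processing notes; no source used here gives versions, settings, strandedness or annotation. The authors deposited FPKM, 1 value per gene and library, with a gene length in bases. Reads per gene were recovered from FPKM times length, since 100% of these products were whole multiples of a library's step (tolerance 0.01 read). Totals were 17017907, 16964740 and 16581579 reads in libraries 1, 2 and 3. The 3 value columns whose names match no label were not used, so the planned limma comparison of zingerone with OVX was not run.

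Genes averaging 1 FPKM or more were tested by chi-square on reads against these totals, with Benjamini-Hochberg adjustment (threshold 0.05). The chi-square test was checked on counts simulated with the Poisson noise that it assumes, so the check does not cover noise beyond that. No pair of libraries agreed within sampling noise (chi-square per gene 12.1 to 40.9), so each counts as 1 sample; p-values measure counting noise between these samples, which may be technical. Intervals are exact Poisson (95%) and cover counting error only. The sources used here mention no molecular identifiers, so duplicate reads may be counted, and intervals and p-values may understate even that error. Ranges use log2(FPKM + 1), which understates low genes. Members at a mean of at least 1 FPKM are named with each library's value and lower ones by their range; of other pathway genes, those with the 2 highest means per list or a 2-fold range. Notum, Sp5 and the library values of members below 1 FPKM are given outside this rule, chosen after they were seen. The members and lists were chosen with earlier results of these data known. All 52 member identifiers occurred in GENCODE M21, 51 with the same start and end. Ccn4 of the target list is named Wisp1 in the table. Python 3.11.15 was used with scipy 1.17.1 for tests, pandas 2.3.3 and numpy 2.4.6 for tables and matplotlib 3.10.9 for plots.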

Additional observations from a re-analysis of the deposited data

How the results depend on the processing

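The count of members that differed between libraries, 18, stayed at 18 with totals scaled by median-of-ratios factors and with the totals behind the deposited FPKM, an alternative chosen after seeing the data, and was 24 of 47 with no filter on low values, where 22.4% of all genes differed. At a mean of at least 5 FPKM it was 6 of 8 members, where 44.9% did. Leaving out 1 library gave 7 to 16 members and 0 to 2 members with at least a 2-fold range. Over all genes the shares were 24.9% and 3.73% without library 1, 18.0% and 1.98% without library 2 (7 and 0 members), and 29.8% and 4.30% without library 3. The count with at least a 2-fold range, 2, became 5 when 0.1 was added before the log (8.95% of all genes), 1 when 5 was added (1.76%) and 1 where means of 5 FPKM were required (3.64%). Of the 18 members, 10 were no longer called without library 2, 6 without library 1 and 2 without library 3. Lrp4, Wif1, Wnt4 and Sfrp5 were called under every alternative in which they were tested; with no filter Lef1 was lost. The 100 recomputed member means all moved by less than 1 SD, which a mean of 3 cannot exceed when 1 is left out. No paired analysis was possible because only the OVX columns could be tied to samples. Ratios of members to the summed osteoblast markers, computed after seeing the data, are not used, because the swing of that sum itself largely sets where they are highest. The alternatives for zingerone against OVX were not run. At this depth, members with under 10 reads per library have intervals too wide to rank.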

Other observations

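Several Wnt genes lie beside each other in the genome as pairs, and 4 such pairs were within 100000 bases of each other (mm10 coordinates of the table). Wnt10b and Wnt1, 11706 bases apart on chromosome 15 and on opposite strands, had means of 1.33 and 0.168 FPKM. Wnt10a and Wnt6, 6193 bases apart on chromosome 1 and on the same strand, had means of 0.868 and 0.153 FPKM. Wnt9a and Wnt3a, 16175 bases apart on chromosome 11 and on opposite strands, had means of 0.291 and 0.0492 FPKM. Wnt3 had a mean of 0.0251 FPKM and its neighbour Wnt9b, 24328 bases away on chromosome 11, had no reads. The last pair rests on 4 reads in 1 library and gives no order.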
